A study of Mus musculus with 9 samples.

Results

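The genes of BMP, TGF-beta and activin signalling were followed in a mouse model of WNT medulloblastoma, a tumour of the hindbrain driven by beta-catenin. The set was chosen by gene symbol and role: 19 ligands and the ligand-processing protease Bmp1, 8 antagonists, 12 receptors and 8 SMAD proteins, 48 genes in all of the 24444 symbols in the count table. All 48 were found, and 44 of them had enough counts to be tested. RNA-seq had been run on 9 libraries of 3 groups, with 3 biological replicates each.

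The first group was MycT58A tumours, grown in the cerebellum of CD1-nude host mice from implanted cells that came from mice with Blbp-Cre, the alleles Ctnnb1Ex3flx/flx and Trp53flx/flx, and a Pik3caE545K +/flx allele. The cells also carried MycT58A, a form of the oncogene Myc whose protein is degraded slowly. The second was EV tumours, of the same origin and in the same host strain but with EV in place of MycT58A. The third was control cerebellum of CD1-nude mice without implanted cells. Both tumour groups therefore share the stabilising Ctnnb1 allele, the Trp53 deletion and the activating Pik3ca allele, all under a Cre driven by the Blbp promoter of radial glia and progenitor cells. Nude hosts lack a thymus but keep macrophages, vessels and fibroblasts, and the pieces sequenced were dissected GFP-positive regions, not sorted cells. The labels used here state neither the age of the hosts nor whether the implanted cells descend from 1 clone.

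BMPs, TGF-betas and activins are secreted dimers that bring together type I and type II receptor kinases at the cell surface. BMP receptors phosphorylate SMAD1, SMAD5 and SMAD9, while TGF-beta and activin receptors phosphorylate SMAD2 and SMAD3, and both groups enter the nucleus with SMAD4. Secreted antagonists trap the ligands, and the inhibitory SMAD6 and SMAD7 and the decoy receptor BAMBI are themselves induced by the pathway. In the developing cerebellum, BMPs from the roof plate pattern the rhombic lip, and BMP2 and BMP4 promote differentiation of granule neuron progenitors.

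Levels are given as CPM, counts divided by a library size that is scaled by TMM, a correction for RNA composition. Total counts ranged from 16631523 to 30410089 per library. Myc, the gene that separates the tumour groups by design, reached 918, 859 and 727 CPM in MycT58A tumours, 360.0, 19.9 and 762 CPM in EV tumours and 0.940, 1.59 and 32.0 CPM in control cerebellum. The library labelled EV replicate 3 thus lay inside the MycT58A range, and the EV values below, which are log2 fold changes of EV tumours over control, are also given without it. EV libraries varied most among themselves: the median SD of a member over 3 libraries was 0.24 log2 units in MycT58A tumours, 0.87 in EV tumours and 0.26 in control cerebellum, against 0.20, 0.64 and 0.17 over all genes tested. For the controls, one label reads cortex and others read cerebellum: the 12 granule neuron markers summed to 4809 to 6788 CPM in control libraries. The 10 forebrain markers summed to 32.6 to 39.2 CPM in MycT58A tumours, 7.47 to 58.8 CPM in EV tumours and 53.6 to 99.9 CPM in control cerebellum, mostly Cux2 in the controls, where Emx1, Emx2 and Fezf2 were at 0. Of the 7 tested, 2 rose and 3 fell in each tumour group. Of all genes tested, 31.2% rose and 31.0% fell against control in MycT58A tumours, and 30.7% and 26.3% in EV tumours.

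More members rose than fell in the tumours against normal cerebellum. Against control, 19 of the 44 tested members rose and 4 fell in MycT58A tumours (edgeR quasi-likelihood test, Benjamini-Hochberg adjusted p under 0.05), where 31.2% of all 15171 genes tested rose and 31.0% fell. In EV tumours 22 members rose and 4 fell against control, beside 30.7% and 26.3% of all genes. The median log2 fold change of the 44 members was 0.67 in MycT58A tumours and 1.29 in EV tumours, against -0.02 and 0.14 over all genes. Without the library labelled EV replicate 3, 24 members rose and 5 fell in EV tumours, beside 31.3% and 26.7% of all genes, with a median of 1.22. Each EV call of a member held without that library, and Bmp5 and Acvr1 rose and Bmp8a fell in addition. With EV replicate 2 left out instead, 7 members fell in EV tumours, with Bmp6, Chrd and Gdf11 among them. The MycT58A and EV comparisons share the same 3 control libraries. The members Gdf5, Gdf6, Gdf7 and Grem1 were below the count filter, at 0 to 0.170, 0 to 3.69, 0 to 1.36 and 0 to 0.443 CPM over the 9 libraries.

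Between the tumour groups the difference ran the other way for most members. Of the 44 members, 1 was higher and 7 were lower in MycT58A than in EV tumours, where 3.28% of all genes were higher and 5.02% lower. The median member stood at a log2 fold change of -0.87, against -0.04 over all genes. Below 0 were 32 of the 44 members (72.7%), beside 51.8% of all genes tested. Without the library labelled EV replicate 3 the median was -0.87, against -0.06 over all genes. Bmp6, Gdf11, Tgfb2, Nog, Chrd and Acvr1 stood above 0 without EV replicate 2, at 0.50, 0.12, 0.58, 0.48, 1.22 and 0.23. Smad4, Smad5 and Smad9 stood below 0 in that setting, at -0.060, -0.12 and -0.14. The SMADs did not share the shift: with all libraries 5 of 8 were above 0, with a median of 0.10. In bulk tissue, fewer cells of a type and less RNA per cell cannot be told apart.

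Among the 10 tested BMP and GDF ligands, 5 rose in MycT58A tumours and 5 in EV tumours against control, and Gdf10 fell in both. Over all genes tested, 31.2% rose and 31.0% fell in MycT58A tumours, and 30.7% rose and 26.3% fell in EV tumours. Bmp2, a ligand that drives granule precursors to differentiate, had 45.8, 48.8 and 27.4 CPM in MycT58A tumours, 62.2, 125 and 102 CPM in EV tumours and 2.12, 2.17 and 2.24 CPM in control cerebellum. No tumour library came near the control libraries. Its log2 fold changes, each ± SE from the fit with n = 3 per group, were 4.22 ± 0.35 in MycT58A tumours and 5.46 ± 0.37 in EV tumours over control (edgeR adjusted p = 4.3e-05 and 2.2e-05). Bmp4, a roof plate ligand, had 32.2, 63.8 and 34.5 CPM in MycT58A tumours, 38.2, 126 and 81.3 CPM in EV tumours and 0.654, 2.39 and 1.82 CPM in control cerebellum. It rose by 4.75 ± 0.63 in MycT58A tumours and 5.66 ± 0.66 in EV tumours over control (edgeR adjusted p = 0.000332 and 0.000215) on the log2 scale, and all tumour libraries lay above all controls. Bmp7, which pairs with other BMPs as a heterodimer, had 252, 267 and 233 CPM in MycT58A tumours, 169, 319 and 78.7 CPM in EV tumours and 5.35, 17.9 and 8.26 CPM in control cerebellum. Its log2 fold changes were 4.57 ± 0.62 in MycT58A tumours and 4.17 ± 0.61 in EV tumours over control (edgeR adjusted p = 0.000369 and 0.000661). The EV libraries of Bmp7 spread on both sides of the tight MycT58A group. Without EV replicate 2 its value in EV tumours was 3.57, and without control replicate 2 the values were 5.21 in MycT58A tumours and 4.80 in EV tumours. Bmp2, Bmp4 and Bmp7 had EV values of 5.43, 5.67 and 4.55 without the library labelled EV replicate 3. The 10 choroid plexus markers summed to 264 to 561 CPM in MycT58A tumours, 465, 985 and 35.2 CPM in EV tumours and 15.5 to 75.6 CPM in control cerebellum, with none at 0 in a group. Of these 10 genes, 2 rose in MycT58A and 1 in EV tumours. As in Bmp7, the EV libraries ran from replicate 2 down to replicate 3, an order also seen in the receptors Tgfbr2 and Acvrl1. In MycT58A tumours the marker sum was highest in replicate 3, at 561 CPM, where Bmp7 was lowest, at 233 CPM. The part of these cells in the Bmp7 levels was not tested.

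**Figure D1:**
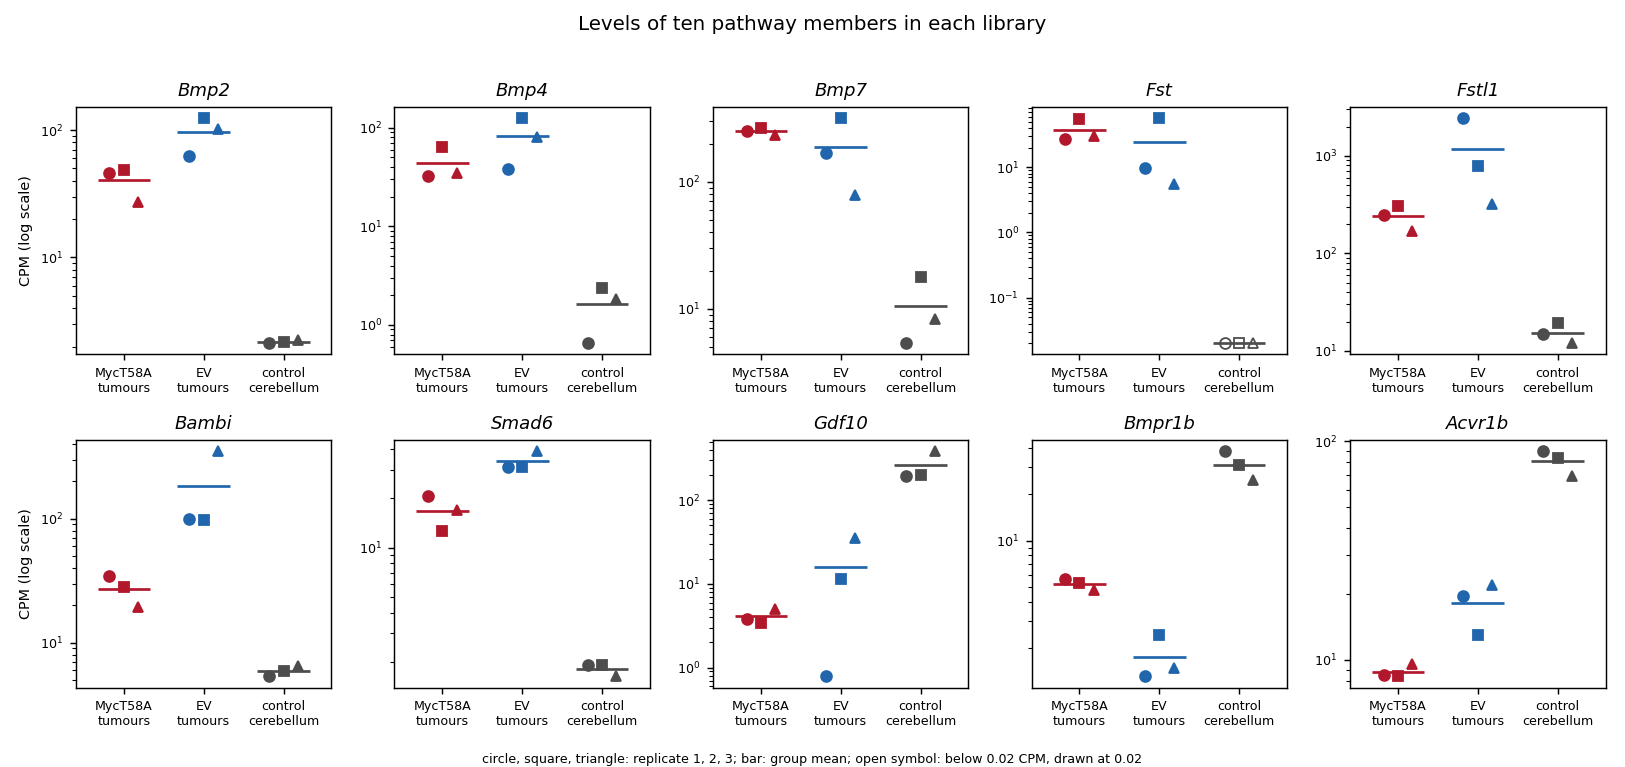
Level of 10 pathway members in each library, in CPM on a log scale, with MycT58A tumours, EV tumours and control cerebellum from left to right. Symbols stand for replicates 1 to 3, bars for group means, and open symbols for values under 0.02 CPM drawn at 0.02; the upper row and Bambi and Smad6 are higher in every tumour library than in every control library, while Gdf10, Bmpr1b and Acvr1b are lower.

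Bmp3, a BMP family member that opposes osteogenic BMPs, was nearly absent from normal cerebellum. It had 16.8, 22.4 and 18.1 CPM in MycT58A tumours, 45.6, 37.4 and 16.95 CPM in EV tumours and 0, 0.0443 and 0.0933 CPM in control cerebellum. The 3 control libraries held 3 counts together, so the ratio to control was 438 in MycT58A tumours (exact 95% interval 149 to 2124) and 814 in EV tumours (278 to 3950). Gdf15, a distant family member made under cell stress, had 2.09, 4.72 and 1.32 CPM in MycT58A tumours, 6.54, 7.69 and 1.02 CPM in EV tumours and 0, 0.0886 and 0.0467 CPM in control cerebellum. It too had 3 control counts, giving ratios of 63.8 in MycT58A tumours (exact 95% interval 21.5 to 312) and 126 in EV tumours (43.0 to 616). Without the library labelled EV replicate 3 the EV ratios were 957 for Bmp3 (327 to 4643) and 161 for Gdf15 (54.7 to 784). These intervals cover counting error only. By edgeR, Bmp3 had an adjusted p of 4.36e-05 in MycT58A and 3.84e-05 in EV tumours over control, and Gdf15 0.00224 and 0.00144.

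Gdf10, also called Bmp3b and known from Bergmann glia, was the most abundant ligand of normal cerebellum per length. It had 3.78, 3.41 and 5.07 CPM in MycT58A tumours, 0.788, 11.3 and 35.2 CPM in EV tumours and 193, 201 and 386 CPM in control cerebellum. Every tumour library was below every control library. The log2 fold changes were -5.99 ± 1.15 in MycT58A tumours and -4.05 ± 1.04 in EV tumours over control (edgeR adjusted p = 0.00206 and 0.0103), and without the library labelled EV replicate 3 the value in EV tumours was -5.43. The 8 astrocyte and Bergmann glia markers were also lower in tumours. They summed to 286 to 591 CPM in MycT58A tumours, 646 to 837 CPM in EV tumours and 4155 to 5256 CPM in control cerebellum. None of them was at 0 in a group. In MycT58A tumours 7 of 8 fell and in EV tumours 6 of 8, beside 31.0% and 26.3% of all genes. In order of replicate, the EV sums were 679, 837 and 646 CPM, so the sum was lowest where Gdf10 was highest. The part of these cells in the fall of Gdf10 was not tested.

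Bmp1, a metalloprotease that processes procollagen and frees ligands, rose only narrowly in EV tumours. It had 31.1, 33.2 and 32.1 CPM in MycT58A tumours, 28.9, 207 and 60.04 CPM in EV tumours and 32.2, 30.3 and 33.8 CPM in control cerebellum. The EV mean rested on replicate 2: the log2 fold change over control was 1.62 ± 0.60 (edgeR adjusted p = 0.0443) and 0.48 without that library (adjusted p = 0.162). The call was also lost without any 1 of the 3 MycT58A or the 3 control libraries, at adjusted p up to 0.162 over all libraries left out. The remaining ligands of the BMP and GDF class passed no test with all libraries. Bmp5 ranged over the 9 libraries from 4.99 to 80.3 CPM, Gdf11 from 5.10 to 21.7 CPM, Bmp6 from 1.44 to 136 CPM and Bmp8a from 0 to 24.3 CPM. A single EV library held the highest value of Bmp6 (replicate 2) and of Bmp8a (the library labelled EV replicate 3). Reads of Bmp8a may be shared with its near-identical neighbour Bmp8b. Bmp1 had an EV value of 1.88 without the library labelled EV replicate 3 (adjusted p = 0.0327).

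Among activin and TGF-beta ligands, 3 of 6 rose in MycT58A tumours, and 4 rose and 1 fell in EV tumours. The shares of all genes that rose were 31.2% in MycT58A and 30.7% in EV tumours, and 31.0% and 26.3% fell. Tgfb1, a ligand made by many immune and stromal cells, had 16.5, 19.6 and 12.02 CPM in MycT58A tumours, 71.00, 123 and 178 CPM in EV tumours and 8.87, 7.97 and 9.71 CPM in control cerebellum. The 3 groups did not overlap. Its log2 fold change over control was 0.86 ± 0.33 in MycT58A tumours, which did not pass the test (edgeR adjusted p = 0.0506), and 3.81 ± 0.37 in EV tumours (adjusted p = 9.23e-05). Tgfb2, an isoform with broad roles in embryonic development, had 79.9, 95.4 and 105 CPM in MycT58A tumours, 107, 414 and 18.5 CPM in EV tumours and 13.1, 14.6 and 11.1 CPM in control cerebellum. Its rises were 2.85 ± 0.87 in MycT58A tumours and 3.79 ± 0.91 in EV tumours over control (edgeR adjusted p = 0.0195 and 0.00743) on the log2 scale. EV replicate 2 held the highest Tgfb2 level, and without it the EV value was 2.29 (adjusted p = 0.00984). In MycT58A tumours the call was lost without any 1 control library, at adjusted p up to 0.0601. Tgfb3 had 24.6, 18.1 and 18.9 CPM in MycT58A tumours, 37.3, 26.6 and 45.02 CPM in EV tumours and 10.8, 15.6 and 11.01 CPM in control cerebellum. The rise was 0.72 ± 0.27 in MycT58A tumours and 1.54 ± 0.28 in EV tumours over control (edgeR adjusted p = 0.046 and 0.0018), and the MycT58A call was lost without any 1 MycT58A library and without control replicate 1 or 3 (adjusted p up to 0.153). Tgfb1, Tgfb2 and Tgfb3 had EV values of 3.47, 4.34 and 1.38 without the library labelled EV replicate 3. The EV libraries of Tgfb2 stood in the same order as the choroid plexus sums, highest in replicate 2 and lowest in replicate 3. In MycT58A tumours both were lowest in replicate 1 and highest in replicate 3. The part of those cells was not tested.

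Inhba, which encodes the activin A subunit, had 4.28, 6.64 and 2.90 CPM in MycT58A tumours, 10.5, 8.58 and 10.04 CPM in EV tumours and 2.21, 1.37 and 2.38 CPM in control cerebellum. It rose by 1.21 ± 0.39 in MycT58A tumours and 2.28 ± 0.40 in EV tumours over control (edgeR adjusted p = 0.0241 and 0.0016) on the log2 scale. Its MycT58A call was lost without MycT58A replicate 2 or control replicate 1 or 2, at adjusted p up to 0.1003. Inha, the alpha subunit that turns activin into inhibin, had 2.45, 3.30 and 1.49 CPM in MycT58A tumours, 0.993, 1.02 and 0.907 CPM in EV tumours and 4.13, 4.61 and 3.41 CPM in control cerebellum. The EV libraries were the lowest of the 9. Inha fell by 2.05 on the log2 scale in EV tumours against control (SE 0.40, edgeR adjusted p = 0.00279), and its log2 fold change in MycT58A tumours was -0.74 ± 0.38 (adjusted p = 0.121). Inhbb, the activin B subunit, passed no test, at 3.84 to 62.6 CPM, a range set by the controls, which held both the lowest and the highest value. Inhba and Inha had EV values of 2.28 and -1.98 without the library labelled EV replicate 3.

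Of 7 tested antagonists, 4 rose in each tumour group and 0 fell by the edgeR test, with 5 in MycT58A and 4 in EV tumours at an unadjusted p under 0.05 in either direction. By the same edgeR test 31.2% of all genes rose and 31.0% fell in MycT58A tumours, and 30.7% and 26.3% in EV tumours. Fst, which encodes follistatin and traps activins, had no count in any control library and 26.9, 55.8 and 29.97 CPM in MycT58A tumours and 9.59, 57.2 and 5.50 CPM in EV tumours. Against a floor of 3 counts over the control group, Fst was at least 869-fold higher in MycT58A tumours and at least 559-fold higher in EV tumours (edgeR adjusted p = 0.000943 and 0.00142). Fstl1, a secreted follistatin-like protein of mesenchymal cells, had 249.8, 305 and 169.9 CPM in MycT58A tumours, 2459, 796 and 319.5 CPM in EV tumours and 14.8, 19.5 and 11.99 CPM in control cerebellum. The groups did not overlap. It rose by 3.97 ± 0.70 in MycT58A tumours and 6.27 ± 0.79 in EV tumours over control (edgeR adjusted p = 0.0014 and 0.000295) on the log2 scale, and by 5.18 in EV tumours without EV replicate 1. Fstl3, a follistatin relative without heparin binding, had 1.26, 2.59 and 0.597 CPM in MycT58A tumours, 2.40, 2.08 and 3.06 CPM in EV tumours and 0, 0.133 and 0.0467 CPM in control cerebellum. Its log2 fold changes were 4.54 ± 0.92 in MycT58A tumours and 5.29 ± 0.93 in EV tumours over control (edgeR adjusted p = 0.00269 and 0.00162). Control replicate 2 held most of its control counts, and without it the values were 5.79 and 6.56. Without MycT58A replicate 2 the MycT58A value was 3.87. Fstl1 and Fstl3 had EV values of 6.76 and 5.16 without the library labelled EV replicate 3, and Fst was at least 704-fold higher in EV tumours than the same floor.

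Bambi, a pseudoreceptor without a kinase domain that is induced by BMP and by WNT signals, had 34.2, 28.3 and 19.3 CPM in MycT58A tumours, 99.04, 98.6 and 352 CPM in EV tumours and 5.35, 5.94 and 6.49 CPM in control cerebellum. The 3 groups did not overlap. On the log2 scale it rose by 2.20 ± 0.51 in MycT58A tumours and 4.95 ± 0.57 in EV tumours over control (edgeR adjusted p = 0.00542 and 0.000211). The library labelled EV replicate 3 held the highest level, and without it the EV value was 4.08. The pericyte, fibroblast and meningeal markers, 12 genes, summed to 376 to 444 CPM in MycT58A tumours, 522 to 1984 CPM in EV tumours and 234 to 270.2 CPM in control cerebellum, with none at 0 in a group. Of the 11 tested, 4 rose and 1 fell in MycT58A tumours and 6 rose in EV tumours against control. Of all genes, 31.2% rose and 31.0% fell in MycT58A tumours, and 30.7% and 26.3% in EV tumours. The part of these cells in the rises of Fst, Fstl1 and Fstl3 was not tested. The antagonists that passed no test were Nog (noggin) at 9.35 to 52.3 CPM, Chrd (chordin) at 0.753 to 10.7 CPM and Bmper at 0.648 to 3.52 CPM over the 9 libraries. EV replicate 2 held the highest Nog and Chrd levels.

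**Figure D2:**
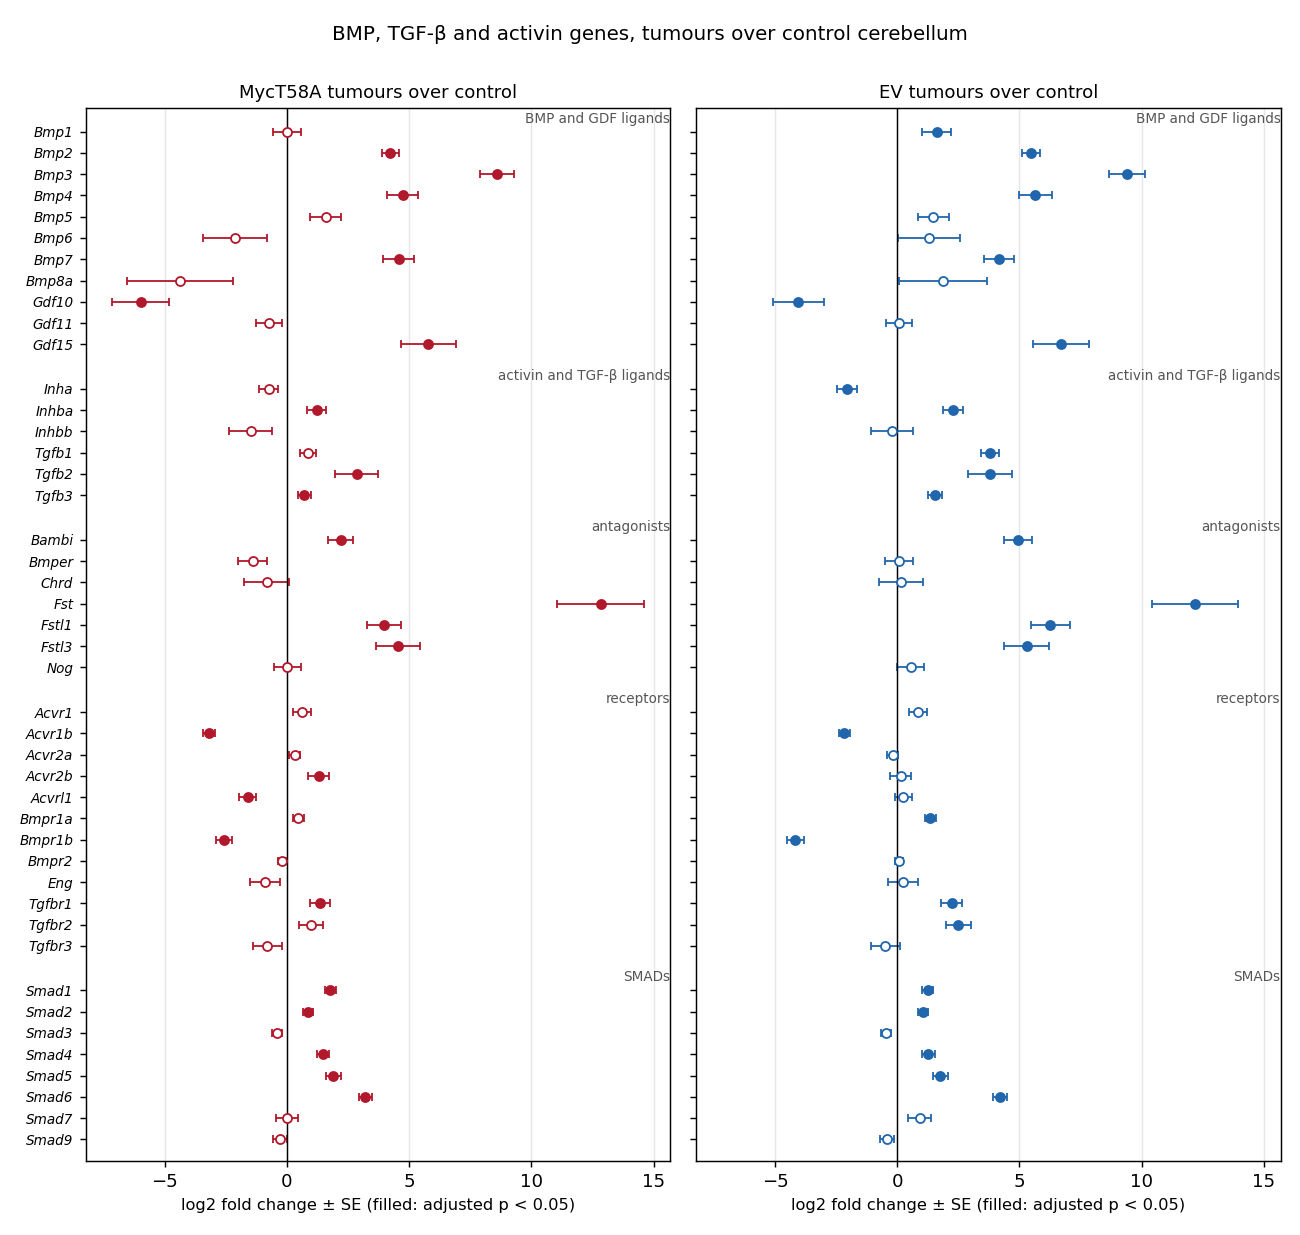
Log2 fold change ± SE (edgeR, n = 3 libraries per group) of the 44 tested members over control cerebellum, MycT58A tumours in the left panel and EV tumours in the right one, in order of role. Filled points have an adjusted p under 0.05; Gdf10, Acvr1b and Bmpr1b lie left of 0 in both panels, and the fitted value of Fst, which has no control count, is no bound.

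In MycT58A tumours 2 of 12 receptors rose and 3 fell against control, where 31.2% and 31.0% of all genes did. In EV tumours 3 rose and 2 fell, beside 30.7% and 26.3% of all genes. Both tumour groups were lower in Acvr1b, the type I receptor ALK4 of activin and nodal, which had 8.49, 8.37 and 9.55 CPM in MycT58A tumours, 19.6, 12.95 and 21.9 CPM in EV tumours and 90.1, 83.7 and 69.4 CPM in control cerebellum. The groups did not overlap. Acvr1b had log2 fold changes of -3.20 ± 0.25 in MycT58A tumours and -2.16 ± 0.24 in EV tumours over control (edgeR adjusted p = 3.6e-05 and 0.000172). Bmpr1b, the type I BMP receptor ALK6, had 5.65, 5.29 and 4.73 CPM in MycT58A tumours, 1.30, 2.42 and 1.47 CPM in EV tumours and 38.3, 30.9 and 24.6 CPM in control cerebellum. It was lowest in EV tumours, and the 3 groups were apart. The log2 fold changes came to -2.58 ± 0.32 in MycT58A tumours and -4.17 ± 0.34 in EV tumours over control (edgeR adjusted p = 0.000224 and 4.81e-05). Neuronal markers were also lower in tumours, with the 12 granule neuron genes summing to 78.5 to 119 CPM in MycT58A tumours, 22.7 to 96.03 CPM in EV tumours and 4809 to 6788 CPM in control cerebellum, none at 0 in a group. All 12 fell in both comparisons, and their part in the falls of Acvr1b and Bmpr1b was not tested. Acvr1b and Bmpr1b had EV values of -2.29 and -4.06 without the library labelled EV replicate 3.

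Bmpr1a, the widely expressed type I BMP receptor ALK3, had 142, 139 and 129 CPM in MycT58A tumours, 311, 180.5 and 263 CPM in EV tumours and 84.4, 109 and 103 CPM in control cerebellum. The groups were apart. Its log2 fold change was 1.35 ± 0.22 in EV tumours over control (edgeR adjusted p = 0.00124) and 0.47 ± 0.22 in MycT58A tumours (adjusted p = 0.0931, not passed). Tgfbr1, the TGF-beta type I receptor ALK5, had 37.99, 35.9 and 33.97 CPM in MycT58A tumours, 90.6, 78.9 and 27.7 CPM in EV tumours and 10.7, 17.6 and 13.8 CPM in control cerebellum. It rose by 1.36 ± 0.41 in MycT58A tumours and 2.23 ± 0.42 in EV tumours over control (edgeR adjusted p = 0.0175 and 0.00222) on the log2 scale, and the MycT58A call was lost without control replicate 1 (adjusted p = 0.0600). Tgfbr2, its type II partner, had 48.6, 47.9 and 43.4 CPM in MycT58A tumours, 121, 241 and 42.5 CPM in EV tumours and 25.7, 26.2 and 19.2 CPM in control cerebellum. It rose by 2.50 ± 0.53 in EV tumours (adjusted p = 0.00398), or 1.79 without EV replicate 2, and its log2 fold change in MycT58A tumours was 0.98 ± 0.50 (adjusted p = 0.121, not passed). Bmpr1a, Tgfbr1 and Tgfbr2 had EV values of 1.34, 2.62 and 2.94 without the library labelled EV replicate 3.

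Acvr2b, a type II receptor for activins, had 34.9, 28.2 and 47.8 CPM in MycT58A tumours, 18.5, 6.88 and 24.1 CPM in EV tumours and 12.3, 16.1 and 16.4 CPM in control cerebellum. The MycT58A libraries were the 3 highest. Acvr2b rose by 1.31 ± 0.43 on the log2 scale in MycT58A tumours over control (edgeR adjusted p = 0.0267), while in EV tumours the value was 0.14 ± 0.43 (adjusted p = 0.79). The MycT58A call was lost without MycT58A replicate 1 or 3 or any 1 control library, at adjusted p up to 0.0939. Acvrl1, the endothelial type I receptor ALK1, had 7.09, 6.96 and 5.24 CPM in MycT58A tumours, 24.2, 32.7 and 13.3 CPM in EV tumours and 21.9, 18.4 and 18.4 CPM in control cerebellum. It fell by 1.61 on the log2 scale in MycT58A tumours over control (SE 0.34, adjusted p = 0.00338). The EV value was 0.26 ± 0.33 (adjusted p = 0.521). Receptors that passed no test with all libraries were Bmpr2 at 132 to 187 CPM, Acvr1 at 21.4 to 68.04 CPM, Acvr2a at 15.7 to 34.5 CPM, Tgfbr3 at 3.46 to 26.1 CPM and Eng (endoglin, an endothelial coreceptor) at 14.3 to 91.5 CPM. Acvr2b and Acvrl1 had EV values of -0.20 and 0.56 without the library labelled EV replicate 3, and Acvr1 rose by 1.19 (adjusted p = 0.00457).

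Of the 8 SMADs, the same 5 genes rose in both tumour groups: Smad1, Smad2, Smad4, Smad5 and Smad6. Among all genes, 31.2% rose in MycT58A and 30.7% in EV tumours against control. The widest change was in Smad6, the inhibitory SMAD that blocks BMP receptors. It had 20.7, 12.6 and 16.97 CPM in MycT58A tumours, 31.1, 31.3 and 38.95 CPM in EV tumours and 1.92, 1.91 and 1.63 CPM in control cerebellum. Its log2 fold changes were 3.20 ± 0.27 in MycT58A tumours and 4.21 ± 0.28 in EV tumours over control (edgeR adjusted p = 4.55e-05 and 2.2e-05), and the 3 groups did not overlap. Smad1, a BMP-activated SMAD, had 66.02, 64.5 and 65.5 CPM in MycT58A tumours, 33.3, 50.2 and 51.9 CPM in EV tumours and 18.4, 22.99 and 15.8 CPM in control cerebellum. It rose by 1.78 ± 0.23 in MycT58A tumours and 1.24 ± 0.23 in EV tumours over control (edgeR adjusted p = 0.000306 and 0.00213) on the log2 scale. Smad5, its close relative, had 184, 183 and 180.0 CPM in MycT58A tumours, 256, 107 and 138 CPM in EV tumours and 46.7, 49.8 and 50.6 CPM in control cerebellum. All tumour libraries were above all controls, and the rises were 1.89 ± 0.30 in MycT58A tumours and 1.77 ± 0.30 in EV tumours over control (edgeR adjusted p = 0.000821 and 0.0014). Smad4, the common partner, had 164, 171 and 175 CPM in MycT58A tumours, 192, 91.4 and 162 CPM in EV tumours and 60.1, 62.2 and 61.6 CPM in control cerebellum. It rose by 1.47 ± 0.26 in MycT58A tumours and 1.28 ± 0.26 in EV tumours over control (edgeR adjusted p = 0.00129 and 0.00315). The MycT58A libraries of Smad4 and Smad5 lay close together, whereas the EV libraries spread widely. Smad2, activated by TGF-beta and activin, had 76.8, 73.2 and 80.2 CPM in MycT58A tumours, 110.3, 80.1 and 74.6 CPM in EV tumours and 37.8, 44.8 and 44.6 CPM in control cerebellum. Its rises were 0.86 ± 0.19 in MycT58A tumours and 1.06 ± 0.19 in EV tumours over control (edgeR adjusted p = 0.00455 and 0.00193). Smad3, Smad7 and Smad9 passed no test, at 88.6 to 168, 9.37 to 39.5 and 20.3 to 49.7 CPM over the 9 libraries. Smad6, Smad1, Smad5, Smad4 and Smad2 had EV values of 4.12, 1.15, 1.92, 1.24 and 1.19 without the library labelled EV replicate 3.

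The direct comparison set MycT58A tumours against EV tumours, which carry the same driver alleles. An effect of MycT58A cannot be told apart from other differences between the groups, such as their macrophage marker levels. Myc in the library labelled EV replicate 3 also lay inside the MycT58A range. The lowest p was that of Tgfb1, which averaged 16.03 ± 3.79 CPM in MycT58A tumours and 124 ± 53.7 CPM in EV tumours (SD, n = 3 each). The log2 fold change was -2.95 ± 0.35 (edgeR adjusted p = 0.00783). Bambi averaged 27.3 ± 7.50 CPM in MycT58A tumours and 183 ± 146 CPM in EV tumours, a log2 fold change of -2.75 ± 0.52 (adjusted p = 0.0227) that was -1.86 without the library labelled EV replicate 3. For Acvrl1 the means were 6.43 ± 1.03 CPM in MycT58A and 23.4 ± 9.76 CPM in EV tumours, with a log2 fold change of -1.86 ± 0.34 (adjusted p = 0.0216). No MycT58A library of these 3 genes reached the lowest EV library. Bmp2 fell to 40.7 ± 11.6 CPM in MycT58A tumours, against 96.3 ± 31.6 CPM in EV tumours (log2 fold change -1.24 ± 0.30, adjusted p = 0.0433). Smad6 fell to 16.7 ± 4.07 CPM in MycT58A tumours, against 33.8 ± 4.48 CPM in EV tumours (-1.01 ± 0.25, adjusted p = 0.0428). Acvr1b and Bmpr1a, type I receptors, also fell, by 1.04 (SE 0.23, adjusted p = 0.0354) and by 0.88 (SE 0.22, adjusted p = 0.0471) on the log2 scale.

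Bmpr1b was the one member that was higher in MycT58A tumours, at 5.22 ± 0.462 CPM against 1.73 ± 0.603 CPM in EV tumours (SD, n = 3 each). Its log2 fold change was 1.59 ± 0.31 (edgeR adjusted p = 0.0252). All 8 calls held without the library labelled EV replicate 3, when 2 members were higher and 10 lower, beside 10.9% and 14.7% of all genes. The log2 fold changes were then -2.59 for Tgfb1, -2.14 for Acvrl1, -1.19 for Bmp2, -0.90 for Smad6, -0.90 for Acvr1b, -0.85 for Bmpr1a and 1.496 for Bmpr1b. They were less stable to other libraries. Without MycT58A replicate 1 or 2 only Tgfb1 of the 8 passed, without MycT58A replicate 3 none did, and without any 1 control library Tgfb1 and Acvrl1 passed. Bmp2 was also lost without EV replicate 2 and Bmpr1a without EV replicate 1. The highest adjusted p with 1 library left out was 0.0582 for Tgfb1, 0.102 for Acvrl1, 0.105 for Bambi, 0.0972 for Bmpr1b, 0.145 for Smad6, 0.144 for Bmp2, 0.128 for Acvr1b and 0.167 for Bmpr1a. With only the MycT58A and EV libraries in the fit, 0 members passed by edgeR, while DESeq2 called 2 higher and 12 lower.

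**Figure D3:**
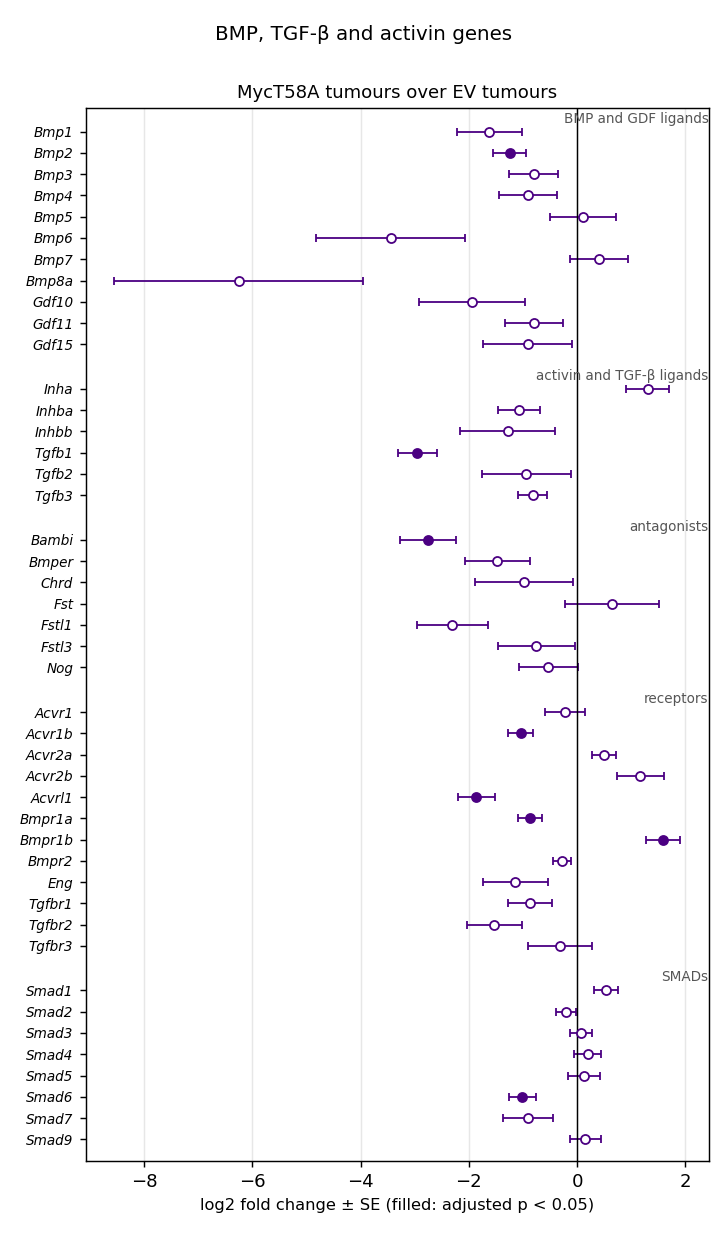
Log2 fold change ± SE (edgeR, n = 3 libraries per group) of the 44 tested members in MycT58A tumours over EV tumours, in order of role. Filled points have an adjusted p under 0.05; 7 of them lie left of 0 and Bmpr1b lies right of it.

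Some markers of other cells also differed between the tumour groups, where 3.28% of all genes were higher and 5.02% lower in MycT58A tumours. The 12 microglia and macrophage genes, none at 0 in a group, summed to 67.96 to 152 CPM in MycT58A tumours, 403 to 592 CPM in EV tumours and 198 to 242 CPM in control cerebellum, and 5 of the 12 were lower in MycT58A than in EV tumours. The 12 endothelial genes summed to 85.5 to 169 CPM in MycT58A tumours and 84.97 to 469 CPM in EV tumours. In control cerebellum the sum was 279.8 to 311 CPM. No endothelial gene passed the test between the tumour groups (edgeR, 4 at an unadjusted p under 0.05) and none was at 0 in a group. Against control, 3 of the 12 fell in MycT58A tumours, where 31.0% of all genes fell. Of 11 tested pericyte, fibroblast and meningeal genes, 2 were lower in MycT58A tumours. Epithelial keratin genes summed to 1257 CPM in the library labelled EV replicate 3, against 32.3 and 111 CPM in the other EV libraries. The lowest endothelial sum of all libraries, 84.97 CPM, was in EV replicate 1, where Acvrl1 lay above every MycT58A library. The part of the cells listed here in the lower Tgfb1, Acvrl1 and Bambi levels was not tested.

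**Figure D4:**
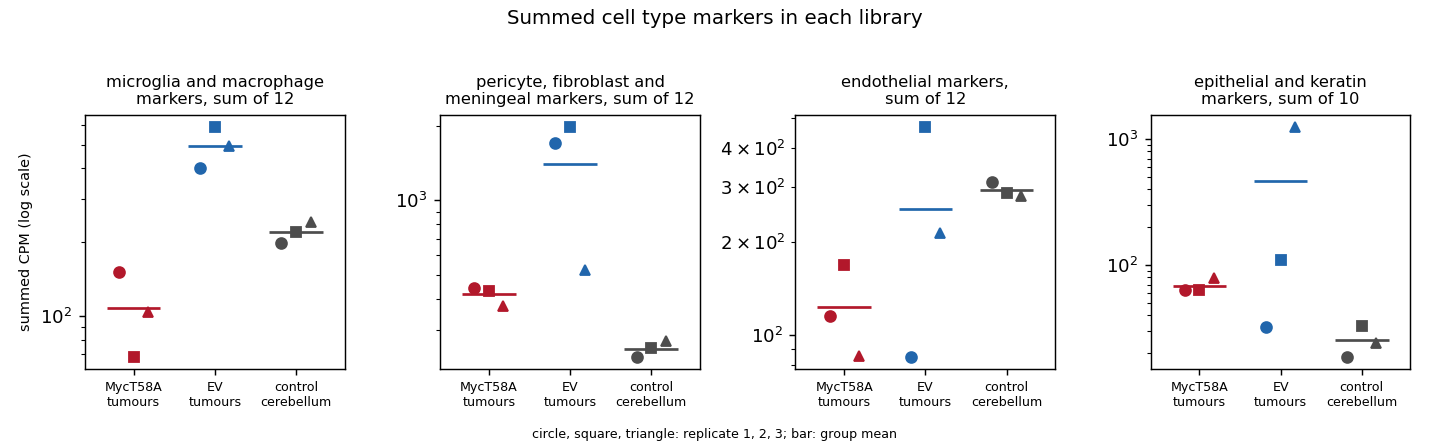
Summed CPM, on a log scale, of microglia and macrophage, pericyte, fibroblast and meningeal, endothelial, and epithelial keratin markers in each library, with MycT58A tumours, EV tumours and control cerebellum from left to right. Symbols stand for replicates and bars for means; the microglia and macrophage sum is 67.96 to 152 CPM in MycT58A tumours and 403 to 592 CPM in EV tumours.

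A pair of the genes lower in MycT58A tumours are neighbours on chromosome 15: in mm10, Acvrl1 lies at chr15:101128522-101145336 and Acvr1b at chr15:101174067-101213684, both on the plus strand and 28.7 kb apart. Promoter windows of RefSeq (build GRCm38.p6), from 250 bases before to 50 after a gene's start, were found for 33 of the 48 members. They were searched on both strands for GGCGCC (a BMP-SMAD element), CAGACA (a SMAD box), CTTTGAT and CTTTGAA (TCF/LEF motifs), CACGTG (the MYC E-box) and GTCTAGAC (a palindromic SMAD element, added after the windows were read). The 4 windows shown belong to members that passed between the tumour groups and hold at least 1 of these motifs, in capitals. Tgfb1, the member of lowest p between these groups, also had a window, and it held none of the motifs. They lie at chr9:64022010-64022309 (minus strand), chr15:101173822-101174121 (plus strand), chr14:34502497-34502796 (minus strand) and chr3:141982215-141982514 (minus strand). The Bmpr1a and Bmpr1b windows are at internal starts, 795 and 187161 bases inside the annotated genes.
Smad6: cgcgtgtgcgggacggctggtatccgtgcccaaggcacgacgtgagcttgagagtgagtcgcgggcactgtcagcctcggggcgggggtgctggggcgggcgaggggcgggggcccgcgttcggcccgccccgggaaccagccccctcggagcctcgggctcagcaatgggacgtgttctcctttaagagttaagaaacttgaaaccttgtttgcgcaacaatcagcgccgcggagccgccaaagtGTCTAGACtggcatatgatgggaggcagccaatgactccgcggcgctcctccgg
Acvr1b: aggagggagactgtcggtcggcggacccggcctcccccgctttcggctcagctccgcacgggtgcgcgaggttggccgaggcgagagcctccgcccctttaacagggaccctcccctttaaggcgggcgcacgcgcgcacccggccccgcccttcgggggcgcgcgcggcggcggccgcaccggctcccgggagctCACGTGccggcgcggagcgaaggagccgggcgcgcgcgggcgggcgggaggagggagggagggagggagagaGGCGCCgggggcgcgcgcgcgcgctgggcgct
Bmpr1a: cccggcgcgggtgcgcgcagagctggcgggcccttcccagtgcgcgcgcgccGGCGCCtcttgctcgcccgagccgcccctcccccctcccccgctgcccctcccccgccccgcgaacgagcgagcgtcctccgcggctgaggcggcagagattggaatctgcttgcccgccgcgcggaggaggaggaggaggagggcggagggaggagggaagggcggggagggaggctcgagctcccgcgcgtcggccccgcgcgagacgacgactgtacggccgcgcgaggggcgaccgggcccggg
Bmpr1b: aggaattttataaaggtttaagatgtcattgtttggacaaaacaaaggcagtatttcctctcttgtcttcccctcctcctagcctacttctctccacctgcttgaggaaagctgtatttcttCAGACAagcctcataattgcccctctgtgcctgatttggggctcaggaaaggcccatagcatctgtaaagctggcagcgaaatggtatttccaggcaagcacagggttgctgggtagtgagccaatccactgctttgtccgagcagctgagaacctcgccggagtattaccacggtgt

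The Smad6 window holds GTCTAGAC starting 4 bases before the start of the gene, a motif in 70 of all 32851 windows (0.21%). Because this motif was added after the windows were read, that share does not show the match to be unusual. The Smad6 window held none of the other motifs. Acvr1b holds both CACGTG and GGCGCC, Bmpr1a holds GGCGCC, and Bmpr1b, the gene with the opposite direction, holds CAGACA. Of the 33 member genes, 9 held GGCGCC in at least 1 of their windows, 6 CAGACA, 5 CACGTG, 1 CTTTGAA, 1 GTCTAGAC and 0 CTTTGAT. Counted in the same way over all 27025 genes with a window, the shares were 13.38%, 23.55%, 8.09%, 5.93%, 0.25% and 4.29%. None of these motifs contains another, and a match describes the letters of the window alone.

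Genes around the pathway were read from 7 lists, 86 genes in all, of which 75 were tested. Against control, 26 rose and 23 fell in MycT58A tumours, and 30 rose and 19 fell in EV tumours, beside 31.2% and 31.0% of all genes in MycT58A and 30.7% and 26.3% in EV tumours. Without the library labelled EV replicate 3, 34 rose and 22 fell in EV tumours. Of 8 BMP target genes, 4 rose and 2 fell in MycT58A tumours, and 5 rose and 2 fell in EV tumours. Id1, an immediate target of BMP-SMADs that blocks differentiation factors, had 151, 60.8 and 102 CPM in MycT58A tumours, 83.6, 109 and 101 CPM in EV tumours and 5.15, 6.56 and 5.27 CPM in control cerebellum. Its relative Id3 had 286, 192 and 220.0 CPM in MycT58A tumours, 309, 405 and 139.8 CPM in EV tumours and 10.3, 9.88 and 12.8 CPM in control cerebellum. Every tumour library of both genes lay above every control library. Their log2 fold changes over control were 4.21 ± 0.35 and 4.40 ± 0.41 in MycT58A tumours (edgeR adjusted p = 4.54e-05 and 6.76e-05) and 4.11 ± 0.35 and 4.69 ± 0.42 in EV tumours (5.61e-05 and 6.56e-05). Msx1 and Atoh8 rose in both groups and Msx2 in EV tumours, a call that was lost without the library labelled EV replicate 3 (1.25, adjusted p = 0.0628). Without that library the EV values of Id1, Id3 and Id4 were 4.11, 5.04 and -3.41. The list did not move one way: Id4 fell in both groups (log2 fold change -4.15 ± 0.61 in MycT58A and -3.67 ± 0.60 in EV tumours, adjusted p = 0.000543 and 0.0011), Hey1 fell in MycT58A and Id2 in EV tumours. Of the 8 targets, 0 passed between MycT58A and EV tumours by edgeR, with 1 at an unadjusted p under 0.05. Without the library labelled EV replicate 3, 1 was higher in MycT58A than in EV tumours, beside 10.9% of all genes. In that setting 4 rose and 3 fell in EV tumours against control. The target genes named here were picked with their values in view.

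Of 12 TGF-beta target genes, 7 rose and 1 (Bhlhe40) fell in MycT58A tumours, and 10 rose in EV tumours. Without the library labelled EV replicate 3, 10 rose and 1 fell in EV tumours. For this list and the next, the shares of all genes were 31.2% higher and 31.0% lower in MycT58A tumours. In EV tumours they were 30.7% higher and 26.3% lower. Snai2, a transcription factor of mesenchymal change, had 16.4, 14.4 and 14.2 CPM in MycT58A tumours, 2.98, 11.5 and 13.3 CPM in EV tumours and 0.490, 0.222 and 0.467 CPM in control cerebellum and rose by 5.23 ± 0.64 in MycT58A tumours and 4.54 ± 0.62 in EV tumours over control (edgeR adjusted p = 0.000215 and 0.000463) on the log2 scale. Col1a1, collagen I of fibroblasts, had 46.8, 53.4 and 19.01 CPM in MycT58A tumours, 11.1, 3103 and 6006 CPM in EV tumours and 11.8, 23.3 and 22.1 CPM in control cerebellum. A pair of EV libraries held nearly all of it, while EV replicate 1 was at the control level. Its log2 fold change in EV tumours over control was 7.32 ± 1.74 (edgeR adjusted p = 0.00711), and 6.35 without the library labelled EV replicate 3. Of 13 genes of TGF-beta latency and activation, 4 rose and 4 fell in MycT58A tumours, and 4 rose and 2 fell in EV tumours. Thbs1, thrombospondin that activates latent TGF-beta, had 24.5, 89.5 and 25.6 CPM in MycT58A tumours, 203, 109 and 109.5 CPM in EV tumours and 1.27, 1.77 and 1.73 CPM in control cerebellum. It rose by 4.87 ± 0.61 in MycT58A tumours and 6.46 ± 0.65 in EV tumours over control (edgeR adjusted p = 0.000248 and 0.000113), with 3.99 in MycT58A tumours without replicate 2. Ltbp1, which anchors latent TGF-beta in the matrix, had 243, 277 and 192 CPM in MycT58A tumours, 586, 217 and 141 CPM in EV tumours and 5.19, 6.25 and 5.74 CPM in control cerebellum. Its rises were 5.37 ± 0.56 in MycT58A tumours and 5.78 ± 0.57 in EV tumours over control (edgeR adjusted p = 0.000103 and 9.73e-05), and 4.97 in EV tumours without EV replicate 1. Itgb8, an integrin subunit that activates latent TGF-beta, and Ltbp2, a relative of Ltbp1, fell in both groups. Their log2 fold changes over control were -3.51 ± 0.46 and -5.14 ± 1.18 in MycT58A tumours (edgeR adjusted p = 0.0003 and 0.00511) and -4.26 ± 0.48 and -2.98 ± 1.05 in EV tumours (0.000176 and 0.038). Snai2, Thbs1, Ltbp1, Itgb8 and Ltbp2 had EV values of 4.19, 6.64, 6.16, -3.91 and -4.06 without the library labelled EV replicate 3. Itgb8 and Ltbp2 were chosen after their values were seen.

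Other secreted antagonists split, with 4 of 14 higher and 6 lower in MycT58A tumours and 3 higher and 6 lower in EV tumours against control. Here too 31.2% of all genes were higher and 31.0% lower in MycT58A tumours, and 30.7% and 26.3% in EV tumours. Sostdc1, a BMP and WNT antagonist, had 9.43, 19.4 and 12.7 CPM in MycT58A tumours, 15.8, 131 and 0.340 CPM in EV tumours and 0.0817, 0.222 and 0.140 CPM in control cerebellum. The log2 fold changes were 6.51 ± 1.77 in MycT58A tumours and 8.33 ± 1.88 in EV tumours over control (edgeR adjusted p = 0.0116 and 0.0055), and 5.75 in EV tumours without EV replicate 2. Fstl5, a neuronal follistatin-like gene, had 0.468, 0.213 and 0.384 CPM in MycT58A tumours, 0.445, 0.765 and 0.170 CPM in EV tumours and 29.5, 29.4 and 23.3 CPM in control cerebellum and fell in every tumour library. On the log2 scale this was -6.25 ± 0.57 in MycT58A tumours and -5.86 ± 0.55 in EV tumours over control (edgeR adjusted p = 6e-05 and 8.33e-05). Acvr1c, the receptor ALK7, had 0.108, 0 and 0.0853 CPM in MycT58A tumours, 0, 0.0425 and 0 CPM in EV tumours and 6.70, 16.3 and 10.2 CPM in control cerebellum. The EV libraries held 1 count of it, a ratio of control to EV of 772 (exact 95% interval 138 to 30531), and its log2 fold change in MycT58A tumours over control was -7.33 ± 0.94 (edgeR adjusted p = 0.000268). Sost, sclerostin, had 1 count in the MycT58A libraries, a ratio of control to MycT58A of 254 (exact 95% interval 45.1 to 10081). Sostdc1 and Fstl5 had EV values of 8.92 and -5.48 without the library labelled EV replicate 3, and the ratio of control to EV of Acvr1c was 579. The EV levels of Sostdc1 also followed the order of the choroid plexus sums, while its MycT58A levels did not. The part of those cells was not tested. Of the lists not yet given, 1 of 5 other ligands rose and 1 fell in MycT58A tumours, and 2 rose and 2 fell in EV tumours. Of 7 coreceptors and other receptors, 1 rose and 5 fell in MycT58A tumours, and 4 fell in EV tumours. Of 16 intracellular regulators, 5 rose and 4 fell in MycT58A tumours, and 6 rose and 3 fell in EV tumours.

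Between the tumour groups, 2 of the 75 other genes were higher and 5 lower in MycT58A tumours, beside 3.28% and 5.02% of all genes. Without the library labelled EV replicate 3, 3 were higher and 14 lower, beside 10.9% and 14.7% of all genes. Pmepa1, a TGF-beta-induced inhibitor of SMAD signalling, had 11.98, 7.31 and 7.72 CPM in MycT58A tumours, 73.4, 57.8 and 93.9 CPM in EV tumours and 15.7, 25.3 and 59.1 CPM in control cerebellum. The MycT58A libraries were the 3 lowest, and the log2 fold change over EV tumours was -3.06 ± 0.50 (edgeR adjusted p = 0.0153). Skil, the SMAD corepressor SnoN, had 44.97, 24.6 and 32.4 CPM in MycT58A tumours, 138, 66.7 and 84.3 CPM in EV tumours and 28.8, 41.1 and 38.5 CPM in control cerebellum, with a log2 fold change of -1.50 ± 0.33 (adjusted p = 0.0338). Cdkn2b, the cell cycle inhibitor p15 that TGF-beta induces, had 2.73, 5.71 and 2.73 CPM in MycT58A tumours, 11.5, 31.2 and 11.2 CPM in EV tumours and 0.940, 1.46 and 1.35 CPM in control cerebellum. It fell by 2.27 on the log2 scale (SE 0.52, adjusted p = 0.0378), or by 1.61 without EV replicate 2. Tagln, a smooth muscle gene, and Gdf3, a nodal-related ligand at under 5 CPM, had log2 fold changes of -3.31 ± 0.84 and -4.45 ± 0.92 (adjusted p = 0.0468 and 0.0285). Without EV replicate 1 that of Tagln was -1.99 (adjusted p = 0.0658), and without EV replicate 2 that of Gdf3 was -3.51. The higher genes were Fstl4 (2.01 ± 0.50, adjusted p = 0.044) and Cfc1, a nodal coreceptor with 80 counts in MycT58A and 0 in EV libraries, which was at least 23.6-fold higher in MycT58A tumours against a floor of 3 counts over the EV group (adjusted p = 0.0194). Each of these 7 calls was lost when any 1 MycT58A library was left out, at adjusted p up to 0.163. Skil and Cdkn2b were chosen after their values were seen. Without the library labelled EV replicate 3 the log2 fold changes of Pmepa1, Skil, Cdkn2b, Tagln, Gdf3 and Fstl4 were -2.87, -1.61, -2.50, -3.78, -4.84 and 2.55, and Cfc1 was at least 17.7-fold higher.

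**Figure D5:**
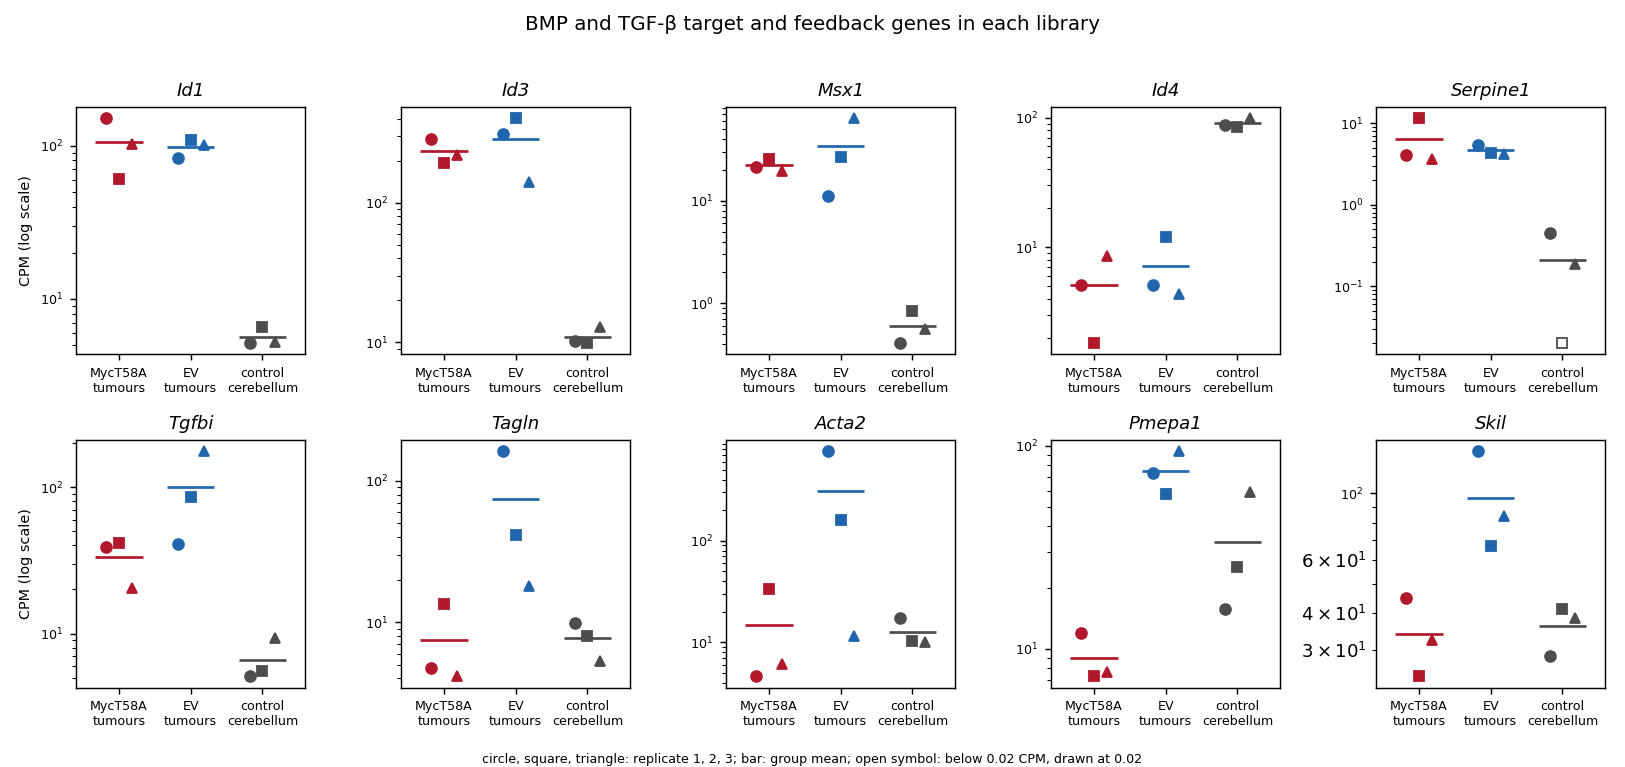
Level of 10 BMP and TGF-beta target and feedback genes in each library, in CPM on a log scale, with MycT58A tumours, EV tumours and control cerebellum from left to right. Symbols stand for replicates 1 to 3, bars for group means, and the open symbol for a value under 0.02 CPM drawn at 0.02; every MycT58A library of Pmepa1 and Skil lies below every EV library.

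Levels can be compared between genes only per length, here as mean CPM per kilobase of summed exons. In MycT58A tumours the highest ligands on this scale were Bmp7 (62.3), Bmp4 (19.4), Tgfb2 (16.2) and Bmp5 (13.8). In EV tumours they were Bmp7 (46.98), Bmp4 (36.4), Tgfb2 (31.01) and Bmp2 (27.1), an order that the wide EV spread does not separate. Normal cerebellum was led by Gdf10 (49.9), with Inhbb (7.11) next. The rank of Inhbb is uncertain, because the control libraries held both its lowest and its highest value. Among receptors, Bmpr1a was first in MycT58A tumours (21.5) and in EV tumours (39.6), whereas control cerebellum had Acvr1b (18.3) and Bmpr1a (15.5) close together. The common SMAD, Smad4, had 45.8 in MycT58A tumours, 40.03 in EV tumours and 16.5 in control cerebellum.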

How the data were processed

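The deposited table holds whole-number counts per gene symbol for 9 mouse libraries. Per the submitters' processing notes the authors used bcl2fastq, TopHat and edgeR with the mm10 build. The read counter, versions, annotation and use of strand are not given in the sources used, so reads of overlapping or antisense genes cannot be told apart. Groups were taken from source name and genotype labels. Replicates are numbered in sample order.

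The 48 members and the gene and marker lists were chosen with earlier results of these data known. The table has 24444 symbols, and filterByExpr by group (minimum count 10, minimum total 15) kept 15171. edgeR 4.0.16 (R 4.3.3) with TMM scaling fitted all 9 libraries with 1 mean per group (glmQLFit, residual df 6). Pairs of groups were compared with glmQLFTest, and p was adjusted by Benjamini-Hochberg over all genes tested, at a threshold of 0.05. SE is |log2 fold change| divided by the square root of F. Each gene has 1 dispersion for all groups, so p also rests on the group not compared. Log2 CPM for the spread used a prior count of 2. Groups without counts were compared at a floor of 3 counts per group, and 1 to 3 counts give a ratio with an exact 95% interval. The fit was tested on simulated counts drawn with the same spread in all groups, so that test does not cover the wider EV spread.

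Members past the threshold in a comparison, and the member of smallest p in each role, are given in full. Of the other genes, up to 3 highest and 3 lowest log2 fold changes per comparison are named, and further ones as stated. Alternatives tried were no low-count filter, RLE scaling, scaling by library size alone, only the 2 groups compared, DESeq2 1.42.0, limma-voom 3.58.1 without and with group weights, and leaving out each library in turn. Positions and exon lengths are from GENCODE vM21 and promoters from RefSeq. Plots used matplotlib 3.10.9 under Python 3.11.15.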

Additional observations from a re-analysis of the deposited data

Results flagged for a closer look

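For 1 member and 5 other pathway genes, the change against control had opposite signs in the MycT58A and EV tumours, and the direct test of MycT58A over EV tumours passed. The share of all genes that meet this rule was not counted, so these counts are not shown to be unusual. The comparisons also share libraries. The log2 fold change of MycT58A over EV tumours was -1.86 for Acvrl1, with -1.61 ± 0.34 in MycT58A and 0.26 ± 0.33 in EV tumours against control. Without EV replicate 2 the EV value of Acvrl1 was -0.053, so its opposite sign rests on that library. For Pmepa1 the value was -3.06, with -1.89 ± 0.48 in MycT58A and 1.17 ± 0.47 in EV tumours against control. Skil had -1.50, with -0.09 ± 0.33 and 1.42 ± 0.33 in the same order. Tagln had -3.31, with -0.04 ± 0.77 and 3.27 ± 0.83, and Gdf3 had -4.45, with -1.71 ± 0.90 and 2.73 ± 0.82. Cfc1 had a fitted value of 7.66, which depends on the prior count because the EV libraries held no count, against 80 in MycT58A and 9 in control libraries. The MycT58A values against control of Skil, Tagln and Gdf3 did not pass the test, nor did the EV values of Acvrl1 and of Pmepa1 (edgeR adjusted p = 0.521 and 0.059), so these opposite signs rest on values that did not pass. The sign of the MycT58A value of Skil changed without MycT58A replicate 2 or control replicate 2, and that of Tagln without MycT58A replicate 1 or 3, without control replicate 1 or 2, and with no low-count filter.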

How the results depend on the processing

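Against control cerebellum, the counts of members that rose stayed within 1.5 times of the reported ones under all 16 alternatives. The lower members of MycT58A tumours against control were 4, but 11 with only the 2 groups compared, 13 by limma-voom with group weights, and 4 to 7 with 1 library left out. In EV tumours against control they were 4 to 7 with 1 library left out. Between MycT58A and EV tumours the counts depended on the processing. Higher members were 0 with only the 2 groups compared and by limma-voom with group weights, 2 by DESeq2 and 0 to 2 with 1 library left out. Lower members were 4 without the low-count filter, 0 with only the 2 groups compared, 12 by DESeq2, 3 by limma-voom with group weights and 0 to 11 with 1 library left out. Over all genes, 498 were higher and 761 lower; the higher ones were 301 by library size alone, 263 without the filter, 10 with only the 2 groups compared, 1281 by DESeq2, 884 by limma-voom, 141 by limma-voom with group weights and 18 to 1693 with 1 library left out. The lower ones were 24 with only the 2 groups compared, 2163 by DESeq2, 308 by limma-voom with group weights and 18 to 2284 with 1 library left out. The share of higher calls between the tumour groups was 39.6% as reported and 24.3% by library size alone, and the median of all genes was -0.04 and -0.17. The cause of these shifts was not tested.

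Each member call kept its direction under every alternative run. Signs changed for members that had not passed the test in that comparison, and 4 of those changes came with a pass in the new direction: without EV replicate 2, Bmp6 (-2.63, edgeR adjusted p = 0.00318), Chrd (-2.04, adjusted p = 0.00517) and Gdf11 (-0.85, adjusted p = 0.0456) were lower in EV tumours than in control. Bmp8a was lower without the library labelled EV replicate 3 (-5.63, adjusted p = 0.00386). With 1 library left out, log2 fold changes of EV tumours over control ranged for Acvr2b from -0.20 to 0.52, for Bmp6 from -2.63 to 1.87, for Bmp8a from -5.63 to 2.53, for Bmper from -0.28 to 0.51, for Chrd from -2.04 to 0.65, for Eng from -0.85 to 0.66, for Gdf11 from -0.85 to 0.41, for Inhbb from -0.99 to 0.92, for Acvrl1 from -0.053 to 0.56 and for Nog from -0.45 to 0.96. By limma-voom and by limma-voom with group weights the same comparison gave -0.046 and -0.047 for Acvr2b, -1.002 and -1.01 for Bmp6, -2.78 and -2.88 for Bmp8a, -0.26 and -0.29 for Bmper, -0.86 and -0.87 for Chrd, -0.20 and -0.21 for Eng, -0.24 and -0.24 for Gdf11 and 0.29 and 0.29 for Inhbb. For MycT58A over EV tumours the values with 1 library left out ranged for Acvr1 from -0.55 to 0.23, for Bmp5 from -0.26 to 0.59, for Bmp6 from -4.01 to 0.50, for Bmp8a from -6.83 to 1.27, for Chrd from -1.47 to 1.22, for Gdf11 from -1.14 to 0.12, for Nog from -0.93 to 0.48, for Smad4 from -0.060 to 0.43, for Smad5 from -0.12 to 0.58, for Smad9 from -0.14 to 0.41 and for Tgfb2 from -1.46 to 0.58. By library size alone Bmp5 stood at -0.0074 and Smad3 at -0.045, and with only the 2 groups compared Smad3 stood at -0.0052. For MycT58A tumours over control, RLE scaling, library size alone and DESeq2 gave -0.052, -0.090 and -0.050 for Bmp1, -0.034, -0.071 and -0.032 for Nog and -0.044, -0.086 and -0.042 for Smad7. The ranges with 1 library left out were -0.029 to 0.062 for Bmp1, -0.077 to 0.15 for Nog, -0.18 to 0.31 for Smad7, -0.33 to 0.11 for Skil and -0.79 to 0.26 for Tagln, and without the low-count filter Tagln stood at 0.042.

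No paired analysis was possible because the labels give no replicate numbers that the groups share. With 3 libraries a group and a wide EV spread, small differences between the tumour groups could not be detected, and a member that passed no test is not shown to be equal.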
